A study of Mus musculus with 10 samples.

Results

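Cytosolic nucleic acid sensing was followed here in erythroid precursors through 10 genes, out of 24421 in the count table. They encode cGAS (listed as Mb21d1), STING (listed as Tmem173), AIM2, the RNA sensor MDA5 (Ifih1), MAVS, TBK1, IRF3, IRF7, TREX1 and SAMHD1. The genes were chosen by name, as the core of the machinery that detects DNA or RNA in the cytosol, and every one of them was found in the table and passed the filter on low counts. DDX41, the RNA helicase whose gene was deleted in this study, has itself been proposed to sense cytosolic DNA upstream of STING.

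RNA-seq had been performed on R2 cells, the CD71+Ter119+ erythroid precursors of the bone marrow, sorted from 10 recipient mice, with 1 library per recipient. Lethally irradiated BoyJ recipients had received 1000000 bone marrow mononuclear cells from donors that all carried Rosa-CreERT2, a tamoxifen-activated Cre expressed in all tissues, and all of them, controls included, were given 1 mg of tamoxifen a day in 2 rounds of 5 days. Marrow was collected 8 weeks after the transplant. The ages of the donors and recipients were not given in the sources used here.

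Mice of 4 genotypes were compared. Ddx41+/+ Trp53+/+ donors gave 3 mice (10, 11 and 12), Ddx41+/- Trp53+/+ donors gave 2 mice (32 and 34), Ddx41+/+ Trp53+/- donors gave 3 mice (22, 23 and 24) and Ddx41+/- Trp53+/- donors gave 2 mice (46 and 47). The Ddx41+/- cells started with 1 floxed allele, which Cre removed after the transplant, whereas the Trp53 allele was missing from the start. Cre was not restricted to erythroid cells, so blood cells of every lineage that came from the graft carried the same deletion. Host cells that survived the irradiation carried neither change, and the labels name no marker that separated them from donor cells. The number of donors behind each genotype is not given, so p-values measure the spread between these recipients.

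Cells carry sensors that bind nucleic acid found outside the nucleus. cGAS binds double-stranded DNA and makes a cyclic dinucleotide that activates STING, and MDA5 binds long double-stranded RNA and signals through MAVS on mitochondria. Both routes meet at the kinase TBK1, which phosphorylates IRF3 and IRF7 and so switches on type I interferon genes, while AIM2 binds DNA and builds an inflammasome that activates caspase-1. TREX1 degrades cytosolic DNA and SAMHD1 removes deoxynucleotides, and loss of either gene provokes interferon. Erythroid precursors condense their nucleus and later expel it.

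Levels are given as CPM, a library's counts scaled to a TMM-adjusted total of 1000000, and the totals ran from 7866648 to 20283930 counts. A gene was called where edgeR's quasi-likelihood test gave a fold change over 1.5 and a Benjamini-Hochberg adjusted p under 0.05 over the 11846 genes tested. Differences are log2 fold changes with their standard error (SE) and, where stated, a 95% interval. Ddx41 itself, the check of the labels, was at 21.9 to 26.6 CPM in the Ddx41+/+ mice and at 12.5 to 16.5 CPM in the Ddx41+/- mice, with no overlap, and Trp53 was at 57.4 to 68.1 CPM in the Trp53+/+ mice and at 40.3 to 46.2 CPM in the Trp53+/- mice. Erythroid markers summed to 40530 to 46295 CPM in every library, led by Slc4a1 and Alas2, although the globin genes Hba-a1, Hbb-bs and Hbb-bt, members of a near-identical family, were listed at or close to 0. Neutrophil markers summed to 4596 to 7894 CPM, macrophage markers to 264.8 to 618.2 CPM and B cell markers to 44.0 to 199.6 CPM, so RNA of genes that mark other cells was present in the sorted fraction. In such bulk samples fewer cells of a type and less RNA per cell cannot be told apart.

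Aim2 and Irf7 had the differences between Ddx41 genotypes that passed an unadjusted p under 0.05 in edgeR, and of the 2 only Aim2 was called. The 250 bases upstream of their RefSeq start sites are therefore shown (RefSeq, GRCm38.p6, 5′ to 3′ on the gene's strand). The Aim2 window lies at chr1:173420354-173420603 on the plus strand, inside the GENCODE span of the gene, whose longest form starts farther upstream. The Irf7 window lies at chr7:141266425-141266674 on the minus strand, and a form of Irf7 in GENCODE begins within it. Capitals mark matches to the NF-kB letters GGGNNNNNCC on either strand, of which the Irf7 window holds 2 that overlap, from 58 to 48 bases before the start.
Aim2: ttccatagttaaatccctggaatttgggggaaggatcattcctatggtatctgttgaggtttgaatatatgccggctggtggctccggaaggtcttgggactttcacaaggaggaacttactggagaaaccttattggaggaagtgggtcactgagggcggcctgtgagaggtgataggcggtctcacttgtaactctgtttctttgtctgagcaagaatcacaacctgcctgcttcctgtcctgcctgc
Irf7: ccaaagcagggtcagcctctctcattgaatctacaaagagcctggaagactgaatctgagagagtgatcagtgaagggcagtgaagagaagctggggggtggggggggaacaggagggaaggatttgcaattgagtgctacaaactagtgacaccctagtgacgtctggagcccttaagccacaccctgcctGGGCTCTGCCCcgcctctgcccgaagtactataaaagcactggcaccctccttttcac

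Upstream windows were found for 9 of the 10 genes, all but Tmem173, and gave 10 windows. The letters GAAANNGAAA, the core that interferon-activated factors bind, occurred in 0 of these 9 genes on either strand and in 2.98% of the 32851 windows of all genes. The AP-1 letters TGANTCA likewise occurred in 0 of 9 genes, against 6.75% of all windows. The NF-kB letters occurred in 5 of 9 genes (Tbk1, Irf3, Irf7, Trex1 and Mb21d1), with matches in both windows of Trex1. Of the windows of all genes 45.8% held them, a share counted over windows and not over genes. A match is a description of letters only, and no match says only that these letters are not in this window.

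To compare the genes with each other, CPM were divided by the exonic length of each gene in kilobases (GENCODE M21, GRCm38). This length joins the exons of all annotated forms of a gene. For Samhd1 it was 9150 bases, against 3926 bases in its longest transcript, so places in the order, that of Samhd1 above all, depend on the length used. The most abundant was Irf7, the interferon-inducible transcription factor, with a median of 40.4 CPM per kb over the 10 mice, followed by Mavs at 26.6 and Tbk1 at 23.9 CPM per kb. Samhd1 had a median of 16.3 CPM per kb and Ifih1 of 8.74 CPM per kb. Trex1, Irf3 and Aim2 followed with medians of 8.53, 7.94 and 5.78 CPM per kb. The place of Trex1 is uncertain, because its exonic bases also lie in exons of Atrip on the same strand. The DNA sensing pair came last, Tmem173 at 2.69 and Mb21d1 at 1.42 CPM per kb. In this order, the ranges over the 10 mice did not overlap between Irf7 and Mavs, Tbk1 and Samhd1, Samhd1 and Ifih1, or Aim2 and Tmem173, whereas the other 5 neighbouring pairs overlapped. The sorted R2 libraries of every genotype therefore held more RNA per length of the RNA-sensing adaptor and the shared kinase than of cGAS and STING. RNA of other cell types was present in them, and which cells held these transcripts was not tested.

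**Figure D1:**
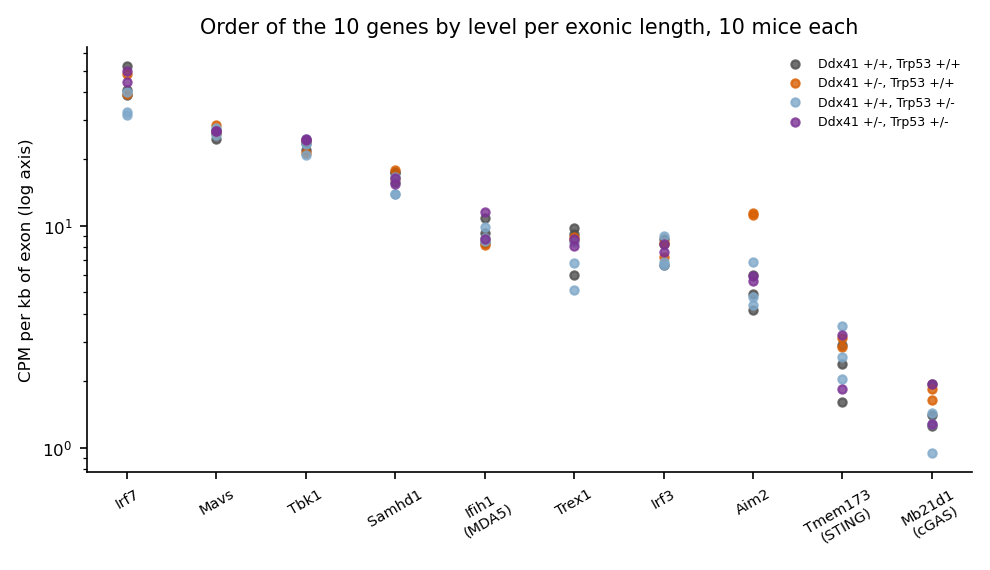
CPM per kilobase of exon (log axis) of the 10 genes in each of the 10 mice, ordered by median, with 1 point per mouse coloured by genotype. Irf7 lies highest (median 40.4) and Mb21d1 lowest (median 1.42), and the orange points of Aim2, the Ddx41+/- Trp53+/+ mice, stand above its other points.

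The genes also differed in how much they varied between mice. Mavs had a coefficient of variation of 4.002% over the 10 mice, Tbk1 of 6.09% and Samhd1 of 8.38%, against a median of 14.6% over all tested genes. Irf3, Ifih1 and Irf7 had values of 11.2%, 12.1% and 16.5%, and Trex1, Mb21d1 and Tmem173 of 18.8%, 22.3% and 24.3%. Aim2 had the highest, 40.5%. The median over the 10 genes was 14.3%, close to that of all genes. Counts were lowest for Mb21d1 (39 to 143 counts), Tmem173 (56 to 167 counts) and Trex1 (59 to 217 counts), and the part of low counts in their spread was not tested. Reads of Atrip may also enter the Trex1 counts.

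The first comparison asks what loss of 1 Ddx41 allele did with both Trp53 alleles present. Of the 10 genes 1 was called, Aim2, the cytosolic DNA sensor of the inflammasome, which was 2.26-fold higher in the Ddx41+/- mice; over all tested genes 0.54% were called. Aim2 was at 14.6, 17.2 and 20.9 CPM in the Ddx41+/+ Trp53+/+ mice 10, 11 and 12 and at 39.3 and 39.8 CPM in the Ddx41+/- Trp53+/+ mice 32 and 34. Both Ddx41+/- mice were thus above all 3 controls, with no overlap, and differed little from each other. These values rest on 276 to 355 counts of Aim2 in the controls and on 646 and 313 counts in mice 32 and 34.

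The log2 fold change of Aim2 was 1.17 ± 0.18 (SE), with a 95% interval of 0.79 to 1.56 and an edgeR adjusted p of 0.00438. The call rests on having both Ddx41+/- mice: without mouse 32 the log2 fold change was 1.18 with an edgeR adjusted p of 0.0709, without mouse 34 it was 1.17 with an edgeR adjusted p of 0.0746, and the number of the 10 genes called was 0 in either case.

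None of the other 9 genes passed an unadjusted p under 0.05 in this comparison, so 1 of 10 passed against 9.64% of all tested genes. Their log2 fold changes ran from -0.16 for Ifih1 to 0.37 for Tmem173, and Aim2 was the 1 gene of the 10 whose genotypes did not overlap, against 24.9% of all tested genes. The median over the 10 genes was 0.04 and that over all tested genes was 0.00, with 6 of 10 higher.

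**Figure D2:**
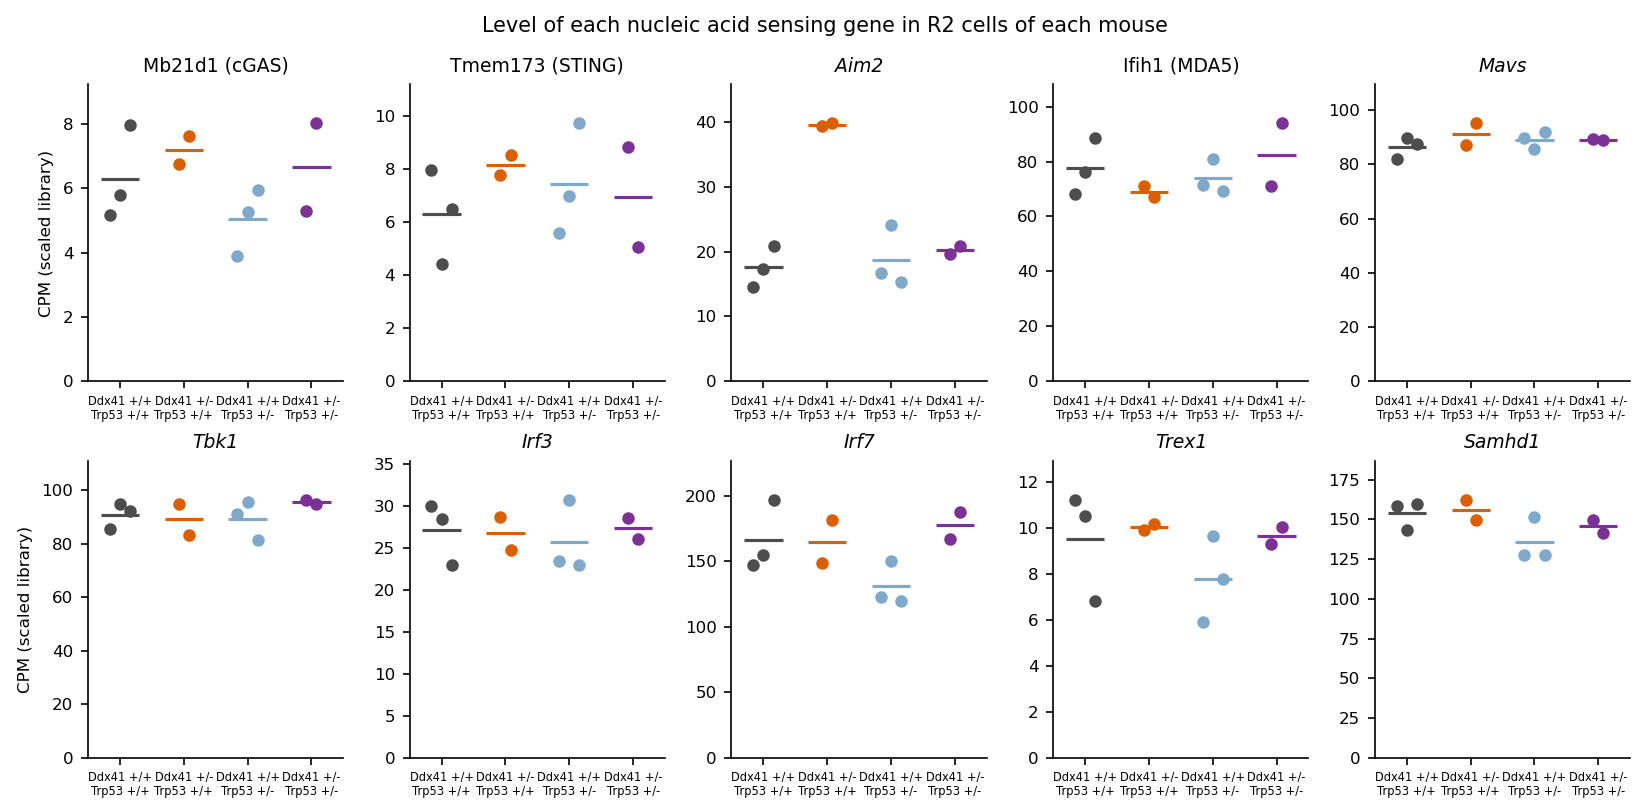
CPM of each of the 10 genes (vertical axes from 0, a scale for each gene) in every mouse, by genotype, where points are mice and horizontal bars are genotype means of 2 or 3 mice. Aim2 in the 2 Ddx41+/- Trp53+/+ mice (39.3 and 39.8 CPM) stands above the other 8 mice (14.6 to 24.04 CPM), and Irf7 in the Ddx41+/- Trp53+/- mice (167.2 and 187.9 CPM) stands above the Ddx41+/+ Trp53+/- mice (119.4 to 150.7 CPM).

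Among the upstream DNA sensing genes, Mb21d1, which encodes cGAS, was at 5.17, 5.78 and 7.96 CPM in the controls and at 6.75 and 7.62 CPM in the Ddx41+/- Trp53+/+ mice. Tmem173, which encodes the adaptor STING that cGAS activates, was at 7.96, 4.42 and 6.50 CPM against 7.79 and 8.51 CPM. Both pairs of groups overlapped. The 95% intervals of the log2 fold change were wide, from -0.38 to 0.76 for Mb21d1 and from -0.27 to 1.01 for Tmem173, with an upper bound for Tmem173 of about a doubling.

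The RNA sensing branch was measured more tightly. Ifih1 was at 68.4 to 88.5 CPM in the controls and at 71.2 and 66.9 CPM in the Ddx41+/- mice, with a 95% interval of -0.44 to 0.11. Mavs, the mitochondrial adaptor, was at 81.9 to 89.9 CPM against 87.2 and 95.1 CPM, with the narrowest interval of the 10 genes, -0.11 to 0.25. The groups overlapped for both genes.

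The shared kinase and its targets overlapped between the genotypes as well. Tbk1 was at 85.6 to 94.7 CPM in the controls against 94.7 and 83.4 CPM (95% interval -0.23 to 0.18), and Irf3 at 22.97 to 30.1 CPM against 28.8 and 24.8 CPM (-0.35 to 0.32). Irf7 was at 147.2, 154.8 and 197.1 CPM in the controls and at 148.5 and 181.5 CPM in the Ddx41+/- mice (-0.29 to 0.26). For these 3 genes a change of 1.5-fold in either direction lies outside the interval.

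Of the genes that limit the response, Samhd1 was at 143.4 to 159.9 CPM in the controls against 162.4 and 149.4 CPM (95% interval -0.17 to 0.22). Trex1 was at 11.2, 10.6 and 6.85 CPM against 9.92 and 10.2 CPM (-0.44 to 0.57). Trex1 counts are uncertain, because 100% of its exonic bases also lie in exons of Atrip on the same strand and 93.0% of the 75-base stretches of its longest transcript occur in an Atrip transcript.

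The second comparison asks the same with 1 Trp53 allele missing. Here edgeR called 0 of the 10 genes, against 0.0422% of all tested genes, DESeq2 also called 0, and 1 gene, Irf7, passed an unadjusted p under 0.05, against 3.75% of all tested genes. Aim2 was at 16.7, 24.04 and 15.3 CPM in the Ddx41+/+ Trp53+/- mice 22, 23 and 24 and at 19.6 and 20.8 CPM in the Ddx41+/- Trp53+/- mice 46 and 47. The values of mice 46 and 47 fell between the lowest and the highest Ddx41+/+ value, and the log2 fold change was 0.11 ± 0.18 (SE), with a 95% interval of -0.28 to 0.50 that leaves out a doubling.

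Irf7, the factor that amplifies interferon transcription, was at 122.7, 150.7 and 119.4 CPM in the Ddx41+/+ Trp53+/- mice and at 167.2 and 187.9 CPM in the Ddx41+/- Trp53+/- mice. The groups did not overlap. Mice 22 and 24 lay below the range of the 5 Trp53+/+ mice (147.2 to 197.1 CPM), whereas mice 23, 46 and 47 lay within it. The log2 fold change of Irf7 was 0.44 ± 0.13 (SE), 1.35-fold, with an unadjusted p of 0.00347 and an adjusted p of 0.9997 in edgeR, so it did not pass. Of the 10 genes 1 had genotypes that did not overlap, against 20% of all tested genes.

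The other 8 genes had log2 fold changes from -0.12 for Tmem173 to 0.39 for Mb21d1. In all, 9 of 10 were higher in the Ddx41+/- Trp53+/- mice, with a median of 0.11 against -0.01 over all tested genes. Trex1 was at 5.90, 9.64 and 7.80 CPM against 9.30 and 10.04 CPM, and Mb21d1 at 3.90, 5.25 and 5.94 CPM against 5.29 and 8.02 CPM. Their groups overlapped, and the intervals reached from -0.20 to 0.79 and from -0.17 to 0.95.

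**Figure D3:**
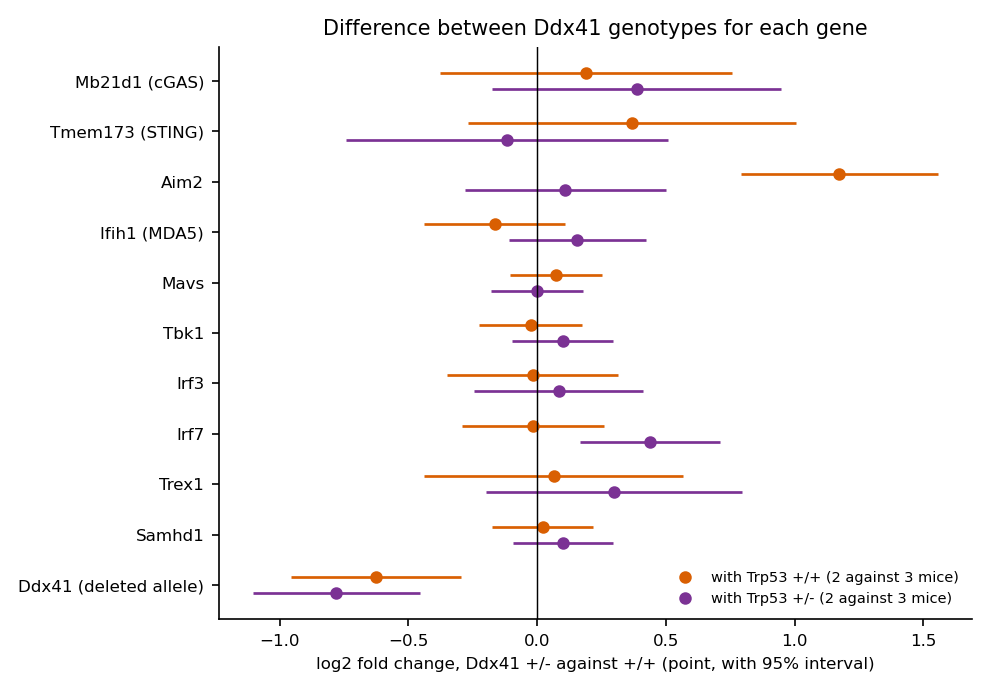
Log2 fold change of Ddx41+/- against Ddx41+/+ mice for the 10 genes and Ddx41 (points, with 95% intervals as lines), with Trp53+/+ in orange and with Trp53+/- in purple, 2 against 3 mice each. The interval of Aim2 with Trp53+/+ (0.79 to 1.56) and that of Irf7 with Trp53+/- (0.17 to 0.71) are the 2 among the 10 genes that leave out 0, and Aim2 alone was called.

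Whether the effect of Ddx41 differed between the Trp53 genotypes was tested as an interaction. For Aim2 the effect was lower with Trp53+/- by a log2 difference of -1.06 ± 0.26 (SE), with a 95% interval of -1.62 to -0.51, an unadjusted p of 0.000855 and an adjusted p of 0.338 in edgeR. It therefore did not pass over all genes with edgeR, whereas with DESeq2 the same difference had an adjusted p of 0.0421. For Irf7 the effect was higher with Trp53+/- by 0.45 ± 0.18 (SE), with an unadjusted p of 0.0248 and an adjusted p of 0.904 in edgeR. Of the 10 genes edgeR called 0, against 0.0675% of all tested genes, DESeq2 called 1 (Aim2), and 2 passed an unadjusted p under 0.05, against 5.01% of all tested genes.

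In the model that joins both Trp53 genotypes, which uses the same mice again, edgeR and DESeq2 each called 0 of the 10 genes for Ddx41, against 0.11% of all tested genes with edgeR. In edgeR 1 of the 10, Aim2, passed an unadjusted p under 0.05, against 8.98% of all tested genes. Its log2 fold change was 0.66 ± 0.18 (SE), with an edgeR adjusted p of 0.236, and without mouse 23, the Ddx41+/+ mouse with the highest Aim2 level, it was 0.81 with an edgeR adjusted p of 0.0253 and was called. The ranges of all 10 genes overlapped between the Ddx41 genotypes, whereas 1.57% of all tested genes did not.

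For Trp53, in the same model, edgeR and DESeq2 each called 0 of the 10 genes, against 0.287% of all tested genes with edgeR. Samhd1, whose product removes deoxynucleotides, was the 1 gene of the 10 with an unadjusted p under 0.05 in edgeR, against 11.2% of all tested genes. It was at 143.4 to 162.4 CPM in the 5 Trp53+/+ mice, with a median of 158.2, and at 127.3 to 151.7 CPM in the 5 Trp53+/- mice, with a median of 141.6. These ranges overlapped, and the log2 fold change was -0.15 ± 0.06 (SE), with an unadjusted p of 0.0289 and an edgeR adjusted p of 0.380. All 10 genes overlapped between the Trp53 genotypes, whereas 2.01% of all tested genes did not, and 6 of 10 were lower in the Trp53+/- mice, with a median of -0.09 against 0.00 over all tested genes. In the same comparison all 10 B cell markers were higher in the Trp53+/- mice, 10 at an unadjusted p under 0.05 and 1 called, and all 10 plasmacytoid dendritic cell markers were higher, 4 at an unadjusted p under 0.05. All 11 macrophage markers were lower, 4 at an unadjusted p under 0.05, and the part of these cells in the level of Samhd1 was not tested.

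Markers of other cell types moved with some of these comparisons. The 10 B cell markers summed to 87.9, 44.0 and 92.2 CPM in the Ddx41+/+ Trp53+/+ mice and to 114.2 and 182.5 CPM in the Ddx41+/- Trp53+/+ mice, where Aim2 was higher. All 10 B cell markers were higher there, 8 at an unadjusted p under 0.05, and 2 of them were called. The same markers summed to 170.2, 155.7 and 199.6 CPM in the Ddx41+/+ Trp53+/- mice, where Aim2 was at 15.3 to 24.04 CPM, and to 176.1 and 157.2 CPM in the Ddx41+/- Trp53+/- mice, where Aim2 was at 19.6 and 20.8 CPM. These 5 mice had B cell marker sums over that of mouse 32 with Aim2 at or below 24.04 CPM, but they differed from it in Trp53 genotype as well. The part of B cells in the level of Aim2 was not tested.

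The 10 plasmacytoid dendritic cell markers summed to 48.0 to 69.7 CPM in the Ddx41+/+ Trp53+/+ mice and to 87.0 and 100.5 CPM in the Ddx41+/- Trp53+/+ mice, and all 10 were higher, 3 at an unadjusted p under 0.05, and 1 was called. They summed to 89.9 to 124.3 CPM in the Ddx41+/+ Trp53+/- mice and to 108.8 and 90.5 CPM in the Ddx41+/- Trp53+/- mice, with 3 of 10 higher. T and NK cell markers summed to 9.04 to 15.6 CPM and 16.8 to 22.2 CPM in the first comparison, with 6 of 9 higher. In the second they summed to 19.1 to 27.5 CPM and 17.0 to 19.8 CPM, with 3 of 9 higher. Of the 9 neutrophil markers 6 were higher in the first comparison and 3 in the second, 0 of them at an unadjusted p under 0.05 in edgeR. No defining marker of these lists was at 0 in every mouse.

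Macrophage markers moved beside Irf7. The 11 macrophage markers summed to 365.0, 323.8 and 264.8 CPM in the Ddx41+/+ Trp53+/- mice and to 528.5 and 411.5 CPM in the Ddx41+/- Trp53+/- mice. All 11 were higher in the latter, 6 at an unadjusted p under 0.05, and none was called. In the Trp53+/+ mice the sums were 618.2, 328.0 and 542.1 CPM against 394.7 and 501.0 CPM, with overlap. The part of these cells in the levels of Aim2 and Irf7 was not tested beyond these values.

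**Figure D4:**
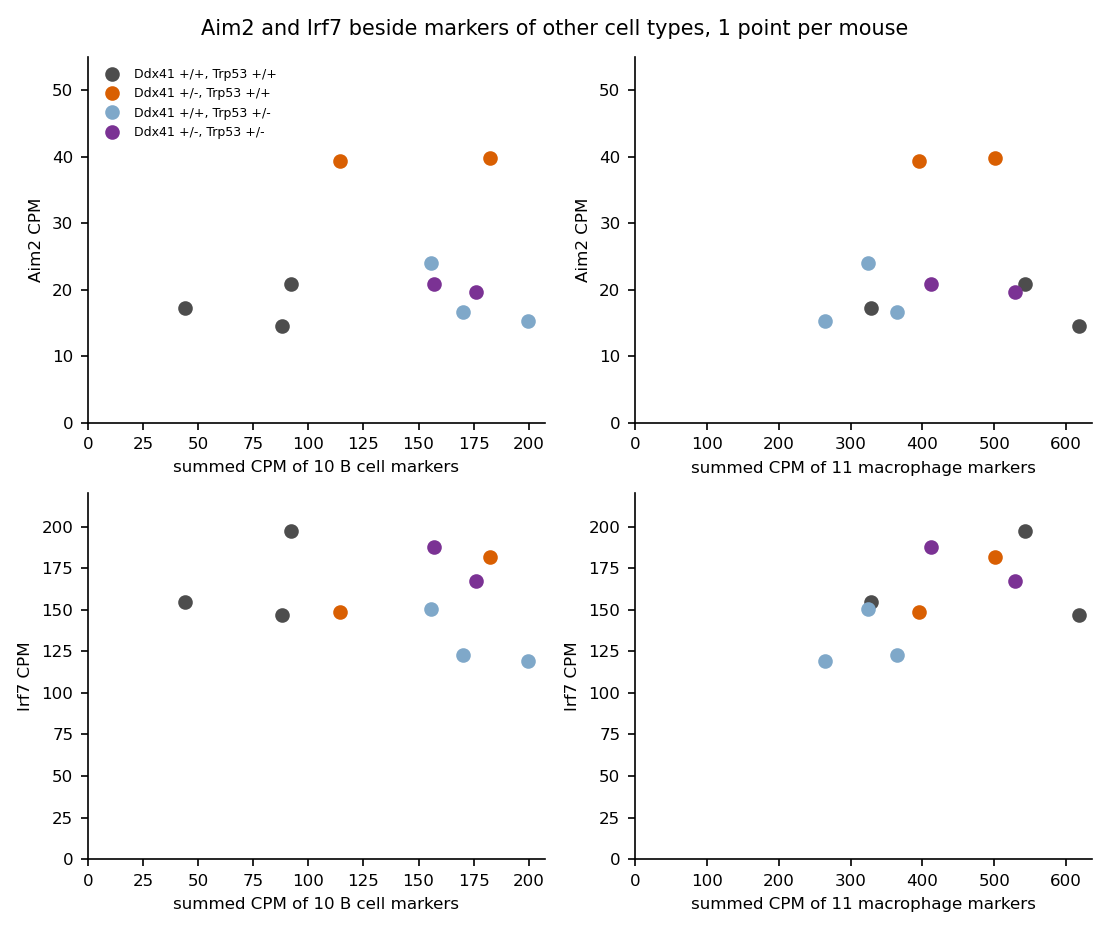
CPM of Aim2 (top) and Irf7 (bottom) against the summed CPM of 10 B cell markers (left) and 11 macrophage markers (right), with 1 point per mouse coloured by genotype and all axes from 0. The 2 Ddx41+/- Trp53+/+ mice had Aim2 at 39.3 and 39.8 CPM with B cell marker sums of 114.2 and 182.5 CPM. The 5 Trp53+/- mice had lower Aim2 with B cell marker sums of 155.7 to 199.6 CPM. Irf7 was at 119.4 to 150.7 CPM in the Ddx41+/+ Trp53+/- mice, with macrophage marker sums of 264.8 to 365.0 CPM. In the Ddx41+/- Trp53+/- mice it was at 167.2 and 187.9 CPM, with sums of 528.5 and 411.5 CPM. In the Trp53+/+ mice it was at 147.2 to 197.1 CPM, with sums of 328.0 to 618.2 CPM.

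The wider pathway was followed through 154 listed genes in 7 groups, of which 146 were tested. These lists include the 10 genes above and Ddx41. With Trp53+/+, 1 of 146 was called in edgeR, Aim2, with 0 called without mouse 32 or without mouse 34 and 3 without mouse 12 (Aim2, Rnaseh2a and Usp18). DESeq2 called 3 (Aim2, Usp18 and Ddx41). Over all tested genes 0.54% were called. In edgeR 11 of 146 passed an unadjusted p under 0.05, a share below the 9.64% of all tested genes, and 5 of them were higher and 6 lower. Rnaseh2a, a subunit of the nuclease that removes ribonucleotides from DNA, was at 84.9 to 99.9 CPM in the controls and at 62.7 and 64.0 CPM in the Ddx41+/- mice. G3bp1, a stress granule protein that also assists cGAS, was at 139.4 to 150.6 CPM against 95.5 and 104.9 CPM. Neither gene overlapped between the genotypes.

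The log2 fold change was -0.53 ± 0.09 (SE) for Rnaseh2a and -0.53 ± 0.09 (SE) for G3bp1, with edgeR adjusted p of 0.0117 and 0.0141, and both stayed under the 1.5-fold limit. Usp18, which dampens interferon receptor signalling and is itself interferon-stimulated, had 0.66 ± 0.16 (SE) with an edgeR adjusted p of 0.0720. Irf8, a factor of myeloid and B cells, had 0.52 ± 0.14 (SE) with an edgeR adjusted p of 0.140. B cell and plasmacytoid dendritic cell markers were higher in the same mice, and the part of these cells in the level of Irf8 was not tested.

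With Trp53+/-, edgeR called 0 of the 146 genes and DESeq2 called 1 (Ddx41), and 15 of 146 passed an unadjusted p under 0.05 in edgeR, 14 of them higher in the Ddx41+/- mice. Over all tested genes 0.0422% were called and 3.75% passed, 255 genes higher and 189 lower. Nlrp3, the inflammasome sensor of cell damage, was at 12, 15.4 and 9.60 CPM in the Ddx41+/+ mice and at 20.7 and 22.5 CPM in the Ddx41+/- mice, with no overlap. Its log2 fold change was 0.81 ± 0.20 (SE) with an edgeR adjusted p of 0.9997. Xaf1 and Oas1a, both interferon-stimulated, had 0.68 ± 0.22 (SE) and 0.83 ± 0.27 (SE), and Rnf135, the ubiquitin ligase of RIG-I, had 1.41 ± 0.45 (SE) at 0.68 to 2.79 CPM. All 11 macrophage markers were higher in the same mice, and the part of these cells in the levels of Nlrp3, Xaf1, Oas1a and Rnf135 was not tested.

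By group, the 11 tested inflammasome genes, Aim2 included, had a median log2 fold change of 0.23 with Trp53+/+ (6 of 11 higher) and of 0.24 with Trp53+/- (10 of 11 higher). The 16 interferon-stimulated genes had medians of 0.23 (12 of 16 higher, 1 at an unadjusted p under 0.05) and 0.24 (15 of 16 higher, 1 at an unadjusted p under 0.05), and none was called in either comparison by edgeR. The medians of the 37 DNA sensing genes were 0.01 and 0.00, those of the 24 RNA sensing genes 0.05 and 0.13, and those of the 29 adaptors, kinases and IRFs 0.00 and 0.03. The 19 nucleases and dampers had -0.06 and 0.02, and the 11 endosomal sensing genes 0.14 and 0.12. Over all tested genes the medians were 0.00 and -0.01, with 5958 and 5776 of 11846 higher. In the same 2 comparisons 10 and 3 of the 10 B cell markers were higher, and 2 and 11 of the 11 macrophage markers. For the 10 plasmacytoid dendritic cell markers these numbers were 10 and 3. The part of these cells in the medians of the groups was not tested.

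**Figure D5:**
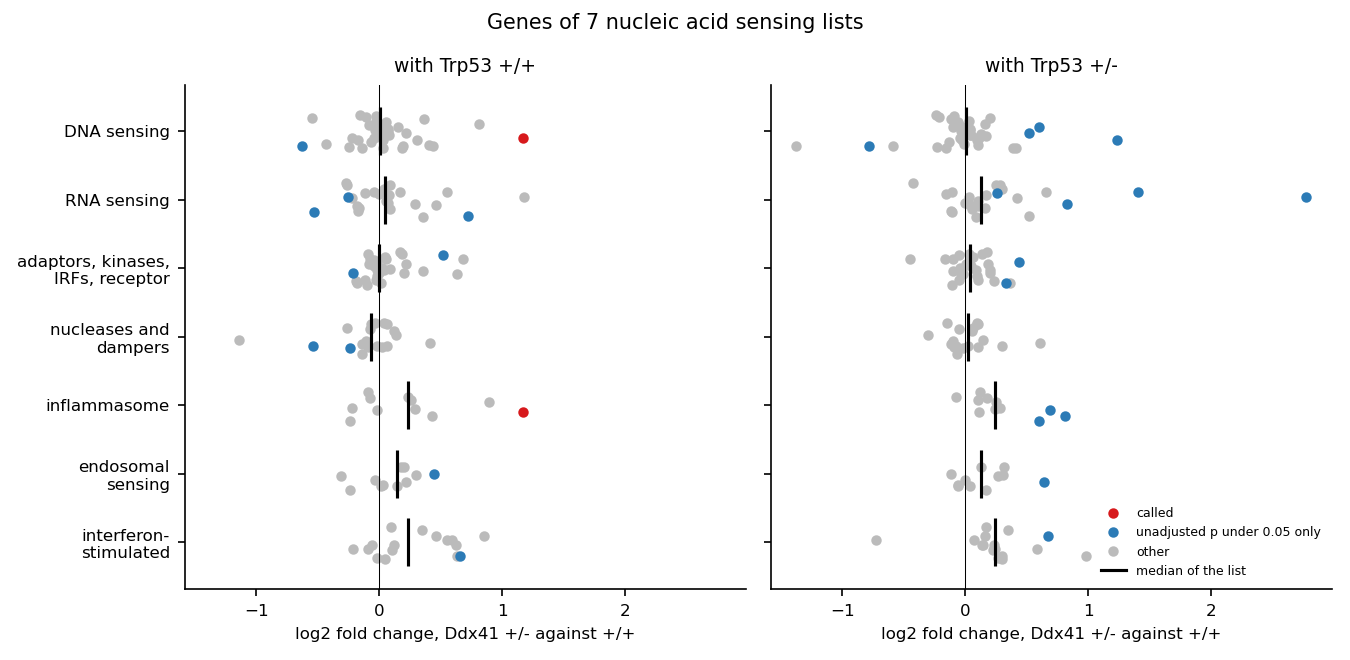
Log2 fold change of Ddx41+/- against Ddx41+/+ mice for the tested genes of 7 nucleic acid sensing lists, with Trp53+/+ (left) and Trp53+/- (right), where points are genes, black bars list medians, red a called gene and blue an unadjusted p under 0.05 only. The red point is Aim2, shown in both lists that hold it, and the point farthest to the right is Oas1g, which had 0 to 2 counts in the Ddx41+/+ Trp53+/- mice, so that its fitted value is no bound.

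Over both Trp53 genotypes, 1 of the 146 pathway genes was called for Ddx41 in edgeR, Ddx41 itself, with -0.70 ± 0.11 (SE) and an edgeR adjusted p of 0.0173, against 0.11% of all tested genes called. In all, 16 of 146 passed an unadjusted p under 0.05, against 8.98% of all tested genes, led after Ddx41 by Nlrp3 with 0.63 ± 0.15 (SE) and an edgeR adjusted p of 0.130. The call of Ddx41 depended on single mice, since without mouse 10, 32 or 46 the number of pathway genes called was 0 and without mouse 23 it was 3 (Ddx41, Aim2 and Oas2). DESeq2 called Ddx41 and Nlrp3. For Trp53, edgeR called 0 of the 146 genes, DESeq2 called 1 (Il1b, also called by edgeR without mouse 11), and 17 passed an unadjusted p under 0.05 in edgeR, 5 higher and 12 lower in the Trp53+/- mice. That share of the 146 is close to the 11.2% of all tested genes, of which 0.287% were called. Il1b, the cytokine that inflammasomes release, had the smallest p, with -0.64 ± 0.17 (SE) and an edgeR adjusted p of 0.123. It was at 10.7 to 22.7 CPM in the Trp53+/+ mice and at 8.65 to 14.1 CPM in the Trp53+/- mice, where all 11 macrophage markers were lower, 4 of them at an unadjusted p under 0.05. The part of these cells in the level of Il1b was not tested. In the interaction test edgeR called 0 of the 146, DESeq2 called 1 (Aim2), and 12 passed an unadjusted p under 0.05, against 5.01% of all tested genes, with 0.0675% called. Among the 12 were Rnaseh2a with 0.46 ± 0.13 (SE) and G3bp1 with 0.42 ± 0.13 (SE), with edgeR adjusted p of 0.557 and 0.699.

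The genes whose levels ran most like those of Aim2 over the 10 mice were Smim7 and Tnip1, an inhibitor of NF-kB signalling, with Pearson r of 0.92 and 0.91 of log2 CPM. Those most like Irf7 were Slc35b3, with r of 0.96, and Oas3, an interferon-stimulated sensor of double-stranded RNA, with r of 0.91. Stil and Mdc1 ran most like Ifih1, with r of 0.97 and 0.95. These values describe 10 points that share genotypes and libraries, and each gene was picked as the best of all tested genes. Among the 45 pairs of the 10 genes, r ranged from -0.60 to 0.76 with a median of 0.12. The highest values were 0.76 for Irf3 and Trex1 and 0.75 for Irf7 and Mb21d1, and the lowest was -0.60 for Ifih1 and Tmem173. The 10 genes thus did not all rise and fall together over these mice, and other sets of genes were not compared.

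Aim2 lies on chromosome 1 from 173350879 to 173466040 (GENCODE M21, GRCm38). Of the 15 tested genes within 1000000 bases of it, 0 were called in edgeR for Ddx41 with Trp53+/+, against 0.54% of all tested genes. An unadjusted p under 0.05 was passed by 2 (Igsf9 and Tagln2), against 9.64% of all tested genes. The log2 fold changes of these neighbours of Aim2 ran from -0.76 to 1.87, with a median of 0.09. Near it stand its relatives of the interferon-inducible DNA-binding family, of which Ifi203 had a log2 fold change of 0.40 ± 0.23 (SE), Mndal of 0.22 ± 0.23 (SE) and Ifi204 of 0.01 ± 0.25 (SE), none with an unadjusted p under 0.05. Of the 10 genes, 8 shared no 75-base stretch with another gene's transcript, Aim2 and Irf7 among them, and Mb21d1 shared 3.22% of its stretches with the pseudogene Gm8093.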

How the data were processed

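RNA-seq counts of R2 cells from 10 recipient mice were analysed. The deposited table holds the authors' raw counts of reads for each gene symbol, and no scaled values. The submitters' processing notes name FastQC 0.11.7, HISAT2 2.0.5, featureCounts 1.5.2 and mm10. The annotation and the strand setting of the counting are not given in the sources used here. The labels name a stranded mRNA kit and the study's methods an unstranded version. Mice marked in the table's name as left out were not analysed here. Their numbers lie next to those of the Ddx41+/- mice, but they have no sample label that gives a genotype.

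In edgeR 4.0.16 (R 4.3.3), filterByExpr with the genotypes as groups left 11846 of 24421 genes, TMM scaled the libraries, and a quasi-likelihood model gave each genotype its own mean over all 10 mice together, with an additive model for effects over both genotypes of the other gene. Tests were two-sided, adjusted by the Benjamini-Hochberg method over all tested genes, and the SE was the absolute log2 fold change over the square root of the F statistic. Intervals used the total degrees of freedom of each gene. CPM used scaled totals, and log2 CPM a prior count of 2.

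The 10 genes, the pathway lists and the marker lists were chosen with earlier results of these data known. Named were the 10 genes, Ddx41 and Trp53, pathway genes called and up to 6 with the smallest unadjusted p under 0.05, and for each of the 10 genes the 2 with the highest r, of which those for 3 are given. A result that this rule would name is not reported here. The relatives of Aim2 and Oas1g were named after their values were seen. Alternatives were DESeq2 1.42.0, its size factors in edgeR, no filter on low counts, a minimum of 10 counts in each library, a fit of just the genotypes compared, no limit on the fold change, and each mouse left out in turn. The procedure was tested on simulated counts. Of the genes given a log2 change of 1 in either direction, 61% were called with Trp53+/+ and 66% with Trp53+/-, and each comparison held 6 false calls. A gene that is not called can therefore still differ. Depth was 7866648 to 20283930 counts, and the number of mice limits the precision. Positions came from GENCODE M21 and upstream windows from RefSeq (GRCm38.p6), and figures were drawn in Python 3.11.15 with matplotlib 3.10.9.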

Additional observations from a re-analysis of the deposited data

Results flagged for a closer look

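Each of the 10 genes was examined for a mouse far from the rest in the 4 pooled groups of 4 to 6 mice (each Ddx41 genotype and each Trp53 genotype), 40 groups in all, and 2 groups held one. Chance alone gives about 1 in 20 groups, which is the share found here, and each mouse stands in several groups. Tbk1 was at 83.4 CPM in mouse 34 (Ddx41+/- Trp53+/+), the library with the fewest counts, whereas the other 3 Ddx41+/- mice were at 94.7 to 96.4 CPM. Trex1 was at 6.85 CPM in mouse 12 (Ddx41+/+ Trp53+/+), whereas the other 4 Trp53+/+ mice were at 9.92 to 11.2 CPM.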

How the results depend on the processing

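No paired analysis was possible because the genotypes share no replicate numbers. Over 240 alternative values of 16 results, 208 kept their call and 0 reversed. With Trp53+/+, the number of the 10 genes called was 0 to 1 when single mice were left out and that of pathway genes 0 to 3 (main 1), 0 without mouse 32 or 34 and 3 without mouse 12; pathway calls were 3 with no limit on the fold change, 3 with DESeq2 and 7 with no filter on low counts. The log2 fold change of Aim2 ran from 1.06 to 1.31 when single mice were left out. With Trp53+/-, pathway calls were 0 in edgeR, 1 with DESeq2 and 4 with no filter, and 0 to 0 with single mice left out, and Irf7 had an adjusted p of 0.000954 with no filter, still under 1.5-fold. In the interaction, calls among the 10 genes were 0 in edgeR, 1 with DESeq2 and 1 with no filter (Aim2), and pathway calls 0, 1 and 2. For Ddx41 over both Trp53 genotypes, calls among the 10 genes were 0, 1 with no filter and 0 to 1 with single mice left out, and pathway calls were 1, 2 with DESeq2, 4 with no filter and 0 to 3. For Trp53, pathway calls were 0, 1 with DESeq2, 1 with no filter, and 0 to 1 with single mice left out (1 without mouse 11). The cause of these shifts was not tested. Precision is limited by 2 or 3 mice per genotype. Depth was thinnest for Mb21d1, Tmem173 and Trex1, whose lowest counts were 39, 56 and 59, and its part in their spread was not tested.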

Other observations

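The listed interferon genes that this pathway can induce had no counts. Ifnb1 was at 0 counts in all 10 libraries, which allows up to 3 counts per library and covers counting error only. Ifna2 and Ifna4 were also listed at 0, but they belong to a family of near-identical genes, as the globin genes do, so reads that match several members could have been dropped and no limit is given for them. The interferon-stimulated Oas3 was at 200.7 to 316.9 CPM. The RIG-I gene Ddx58, an RNA sensor that also signals through MAVS, was at 7.54 to 12.7 CPM, and Dhx58, which regulates both RNA sensors, was at 19.8 to 34.2 CPM. Downstream of AIM2, the adaptor gene Pycard was at 6.86 to 9.53 CPM and Casp1, the protease of the inflammasome, at 3.40 to 8.44 CPM. Their log2 fold changes for Ddx41 with Trp53+/+ were -0.09 ± 0.20 (SE) for Pycard and -0.02 ± 0.31 (SE) for Casp1, neither with an unadjusted p under 0.05. These genes were chosen after their values were seen.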
